A study of Caenorhabditis elegans with 8 samples.

Results

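The comparison described here set animals in which *age-1* activity had been put back into a single tissue against animals that lacked it. Its higher and lower genes were sought among all genes on the array. The restored group was formed of the 6 arrays recorded as intestine_age-1 or neuron_age-1, and the other group of the 2 arrays recorded as *age-1(mg44)*, so that all 8 arrays of the series were used. Every array paired RNA of one strain, labelled with Cy3 and read as green, with N2 (wildtype) RNA in the red Cy5 channel. All values below are log2 ratios of strain over wildtype, or differences between such ratios, and a difference is the mean of the 6 restored arrays minus the mean of the 2 *age-1(mg44)* arrays.

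The *age-1(mg44)* animals were zygotic null homozygotes of heterozygous mothers, which came from strain SP75, where the chromosome with *age-1(mg44)* and the marker *sqt-1(sc13)* is held over the balancer *mnC1*. The restored animals were CY262, with *age-1* limited to the intestine by the transgene *bvIs1*, and CY251, with *age-1* limited to neurons by *bvIs2*. Both CY strains also carried *sqt-1(sc13)* and *age-1(mg44)*, so the null allele and the cuticle marker were common to both groups, and wildtype carried neither. The promoters of the transgenes are not given in the sources used here. CY262 and CY251 are listed with no balancer, which would make their mothers *age-1(mg44)* homozygotes with the transgene. Mothers of the *age-1(mg44)* animals carried a wildtype copy, so maternal *age-1* and restoration cannot be told apart in this comparison. All hermaphrodites were collected 72 h after arrested L1 larvae had been fed at 20°C, at the late L4 to young adult stage, and total RNA came from whole animals. Wildtype animals may have been slightly older, per the study's methods, so a ratio to wildtype also holds stage. The dyes were not swapped, so each ratio to wildtype also holds any dye effect of the probe. A dye effect that is alike on all arrays cancels in a difference between the groups. The records give separate biological replicates, but wildtype RNA may have been used on more than 1 array.

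*age-1* encodes the catalytic subunit of the phosphoinositide 3-kinase that acts below the insulin-like receptor DAF-2. In animals with little DAF-2 or AGE-1 activity the transcription factor DAF-16 enters nuclei, and genes for detoxification, defense against microbes, chaperones and fat metabolism are expressed at other levels. In RNA of whole animals, fewer cells of a type and less RNA per cell cannot be told apart.

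Some facts about the arrays bear on the results. For 4 of the 6 restored arrays, the values of the scanner file recorded under a title were those of another restored sample in the value table of the series. Pooling the 6 arrays makes the comparison independent of which strain each belongs to, and arrays are named here by their titles. In addition, the 3 arrays with replicate number 1 stood together. The deviations of *age-1(mg44)* replicate 1 from its group mean correlated at 0.746 with those of intestine_age-1 replicate 1 and at 0.727 with those of neuron_age-1 replicate 1, across genes, against -0.252 to -0.566 for the other 4 restored arrays. For that reason the difference among the 3 replicate 1 arrays (2 against 1) and the difference among the other 5 arrays (4 against 1) are given beside the main results, as values with no test. Of the spots on an array, 86.1% to 92.8% were well above background. The SD over the 6 restored arrays had a median of 0.189 over genes, and the 2 *age-1(mg44)* arrays lay a median of 0.183 apart.

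The *age-1* probe itself gave ratios of -1.06 and -1.64 in *age-1(mg44)*. In the restored arrays it ranged from -1.88 to -1.03, with a median of -1.54. The groups overlapped fully, and the difference was -0.11 ± 0.27 (SE; limma, adjusted p = 0.923). The place of this probe relative to the *mg44* lesion and the transgenes is not given in the sources used here, so its level checks neither the allele nor the restoration.

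With restored *age-1*, 12 of 18856 genes tested differed from *age-1(mg44)* at an adjusted p under 0.05 (0.0636% of genes; limma, Benjamini-Hochberg over all genes). Of these, 11 were lower (0.0583%) and 1 was higher (0.0053%). The lower genes encoded a pair of C-type lectins (*clec-18* and *clec-128*), a secreted CAP-family protein (*scl-19*), a cytochrome P450 (*cyp-33A1*), an F-box protein (*fbxa-135*), a member of the *pals* family (*pals-39*), a protein annotated on the array as chitinase (*R10D12.15*), and *mlt-3*, *idpb-5*, *ZK355.3* and *F22B3.7*. The gene that was higher was *T22B7.7*. In all 12 the 6 restored ratios lay wholly on one side of the 2 *age-1(mg44)* ratios, and the 11 lower genes were all above wildtype in *age-1(mg44)*, by 0.92 to 2.76.

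The same test on the wildtype channel of the same arrays, which holds N2 RNA on all 8 arrays, called 0 genes by limma at an adjusted p under 0.05, with 276 genes (1.46%) at an unadjusted p under 0.05. On the log ratio that looser threshold was passed by 1799 genes (9.54%), 967 of them lower (5.13%) and 832 higher (4.41%) with restored *age-1*. The signal of the strain channel alone gave 72 genes at an adjusted p under 0.05 (0.382%). For the 12 genes above, the wildtype channel differed by 0.05 to 0.29 between the groups, while the strain channel differed by 0.52 to 4.78 in size.

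**Figure D1:**
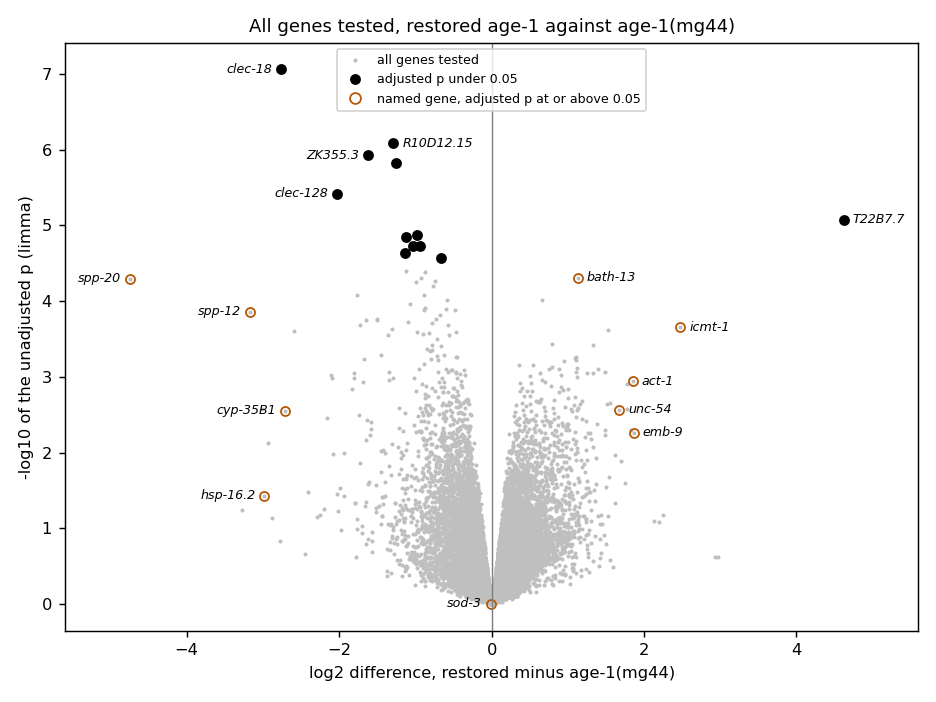
Each dot is 1 of 18856 genes, plotted by its log2 difference (restored minus *age-1(mg44)*) and the -log10 of limma's unadjusted p; black circles are the 12 genes at an adjusted p under 0.05 and open circles are genes named in the text that missed it. *clec-18* has the smallest p and *T22B7.7* is the only black circle on the right, while *spp-20* at -4.74 lies farthest left below the threshold.

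*clec-18*, a member of the large family of secreted C-type lectins that includes genes induced by pathogens, had the smallest p of all genes. Its ratio to wildtype was 2.92 and 2.59 in *age-1(mg44)* and ran from -0.21 to 0.18 with a median of 0.03 in the restored arrays. The groups lay far apart, with the restored arrays around the wildtype level. The difference was -2.76 ± 0.14 (SE), 6.76-fold lower (adjusted p = 0.00165). In 5 of the 6 restored arrays the strain spot was not well above background, and the size of the difference moved with the treatment of background, from -5.68 with the scanner's subtracted signal (adjusted p = 0.290) to -0.87 without subtraction (adjusted p = 0.00526). Among replicate 1 arrays the difference was -2.92, and among the others -2.59.

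A second lectin, *clec-128*, was at 1.88 and 2.19 in *age-1(mg44)*. Restored arrays held it between -0.21 and 0.39, with a median of -0.03. No restored array came near the mutant level, and the difference was -2.02 ± 0.17 (adjusted p = 0.0145). The next lectin genes along the chromosome, *clec-127* and *clec-129*, differed by -0.09 and -0.02 (adjusted p = 0.689 and 0.967). *W10G11.3*, which lies on the other side of *clec-127*, had a difference of -1.44 that missed the threshold (adjusted p = 0.165). Gene order was taken from RefSeq's WBcel235 annotation.

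*ZK355.3*, which has no described product in the files, was at 1.79 and 1.88 in the mutant. It ran from 0.02 to 0.47 over the restored arrays, with a median of 0.20. The replicate 1 array of neuron_age-1 was the highest of them and still far below both mutant arrays. This gave a difference of -1.62 ± 0.12 (adjusted p = 0.00709).

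For *R10D12.15* the ratios were 1.25 and 1.38 in *age-1(mg44)*, against -0.06 to 0.20 with a median of 0.00 in the restored arrays. The restored arrays clustered at the wildtype level and did not overlap the mutant. The difference was -1.29 ± 0.09 (adjusted p = 0.00709). Its size moved with the treatment of background, from -1.77 with the scanner's subtracted signal to -0.50 without subtraction. *scl-19* behaved alike, with 1.12 and 1.0 in the mutant and -0.35 to -0.09, median -0.16, after restoration. All 6 restored ratios of *scl-19* were below 0 and both mutant ratios were above it. Its difference was -1.26 ± 0.09 (adjusted p = 0.00709), whereas its neighbour *scl-20*, of the same family, differed by -0.40 with overlapping groups (adjusted p = 0.920).

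*idpb-5* stood at 1.23 and 1.05 in *age-1(mg44)* and from -0.24 to 0.19 with a median of 0.04 in the restored arrays, where 5 of 6 strain spots were not well above background. The difference was -1.14 ± 0.13 (adjusted p = 0.0398). Its size is set by the treatment of background, from -3.52 with the scanner's subtracted signal (adjusted p = 0.447) to -0.24 without subtraction (adjusted p = 0.0322), and is not a measured level. *pals-39*, whose gene family includes regulators of the response to intracellular pathogens, was at 1.35 and 1.60 and fell to between 0.19 and 0.55, median 0.32. It stayed above wildtype on every restored array. Its difference was -1.12 ± 0.11 (adjusted p = 0.0333), while the adjacent *pals-38* differed by 0.03 (adjusted p = 0.931). With the scanner's subtracted signal *pals-39* differed by -1.69 (limma, adjusted p = 0.320), and without subtraction by -0.32 (adjusted p = 0.0104).

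*cyp-33A1*, a cytochrome P450 of the kind that oxidizes foreign and endogenous lipophilic compounds, was at 1.34 and 1.18 in the mutant. The restored arrays held 0.08 to 0.38, with a median of 0.25. Again no array of one group reached the other, and the gene fell by 1.03 ± 0.11 on the log2 scale (adjusted p = 0.0356). *F22B3.7* fell by 0.97 ± 0.10 (adjusted p = 0.0333), from 0.85 and 0.99 to a range of -0.17 to 0.09 with a median of -0.10. The size for *F22B3.7* also moved with background, from -2.12 with the scanner's subtracted signal to -0.24 without subtraction.

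*mlt-3* and *fbxa-135* fell and yet stayed above wildtype on every restored array. *mlt-3* was at 1.65 and 1.52 in *age-1(mg44)* and at 0.47 to 0.79, median 0.66, with restored *age-1*. Its difference was -0.94 ± 0.10 (adjusted p = 0.0356). *fbxa-135*, one of the many nematode F-box genes whose products select proteins for ubiquitination, was at 1.33 and 1.25 against 0.52 to 0.72, median 0.62. The restored arrays of *fbxa-135* had an SD of only 0.07, and the difference of -0.67 ± 0.07 was the smallest of the 12 (adjusted p = 0.0423).

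Against wildtype, all 12 genes differed in *age-1(mg44)* at an adjusted p under 0.05 and 6 of the 12 did in the restored arrays, with the mean restored ratios of the 11 lower genes between -0.20 and 0.64. Of all genes, 23.9% differed from wildtype in *age-1(mg44)* and 54% in the restored arrays at that threshold. These shares rest on 2 and 6 arrays and so differ in precision, and they do not rank the groups by distance from wildtype. Both comparisons with wildtype share the arrays of the main one, so they add no independent evidence. Among replicate 1 arrays the 12 differences ranged from 0.76 to 4.34 in size, and among the other arrays from 0.60 to 4.65. Their direction in each part follows from the lack of overlap between the groups and is no further evidence. The count of 12 rested on both mutant arrays, since it was 1 without either of them, and it was 28 without intestine_age-1 replicate 3.

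*T22B7.7*, for which the files give no described product, was the single gene that rose. It was at -5.25 and -4.80 in *age-1(mg44)*, the lowest ratios of any gene named here. In the restored arrays it ran from -1.32 to 0.19, with a median of -0.20. The replicate 1 array of intestine_age-1 and the replicate 2 array of neuron_age-1 were the lowest, and all 6 lay far above the mutant. The difference was 4.62 ± 0.44 (24.6-fold, adjusted p = 0.0264), of which the strain channel gave 4.78 and the wildtype channel 0.16. The nearest measured gene on one side, *T22B7.3*, had a difference of 1.15 ± 0.41 that missed the threshold and overlapping groups (adjusted p = 0.439). *srv-7* and *egl-13*, which lie next, differed by -0.19 and 0.09.

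Since only 1 gene rose, the 5 genes with the next smallest p among genes higher on every restored array are described too, although none passed in the main fit. *bath-13*, a gene with BTB and MATH domains, was at 0.14 and 0.09 in *age-1(mg44)* and at 1.10 to 1.61, median 1.17, with restored *age-1*. The difference was 1.13 ± 0.14 (adjusted p = 0.0561). *F11D5.5* was at -0.06 and -0.09 against 0.49 to 0.75, median 0.54 (difference 0.66 ± 0.09, adjusted p = 0.0771). For *F11D5.5* the strain channel differed by 0.38 and the wildtype channel by -0.28. Both genes were at the wildtype level in the mutant and above it on all 6 restored arrays.

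*ZK973.8* was at 0.45 on both mutant arrays and at 1.71 to 2.64, median 1.86, on the restored arrays, among which neuron_age-1 replicate 1 was the highest. Its difference was 1.53 ± 0.24 (adjusted p = 0.107). *nuo-5*, a subunit of mitochondrial complex I, was at 0.00 and -0.45 against 0.43 to 0.76, median 0.57 (difference 0.79 ± 0.13, adjusted p = 0.135). These *nuo-5* values are of its brightest probe, and the mean of all its probes gave a smaller difference of 0.33 (limma, adjusted p = 0.276). On the brightest probe the groups were apart for both genes, by a wider gap in *ZK973.8*.

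*icmt-1*, which encodes the isoprenylcysteine carboxyl methyltransferase that finishes prenylated proteins, was already far above wildtype in *age-1(mg44)*, at 3.98 and 3.67. The restored arrays were higher still, from 5.49 to 7.18 with a median of 6.23. The difference was 2.48 ± 0.38 and missed the threshold (adjusted p = 0.105). The genes on both sides of *icmt-1* had differences in the same direction. *unc-38*, an alpha subunit of the nicotinic acetylcholine receptor, differed by 1.78 ± 0.36 (adjusted p = 0.201), and *F21F3.2* by 1.14 ± 0.40 (adjusted p = 0.434), both with non-overlapping groups. Farther out, *F21F3.4* and *pgal-1* differed by -0.54 and -0.26 with overlapping groups. *unc-38* and *F21F3.2* were chosen after their values were seen.

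**Figure D2:**
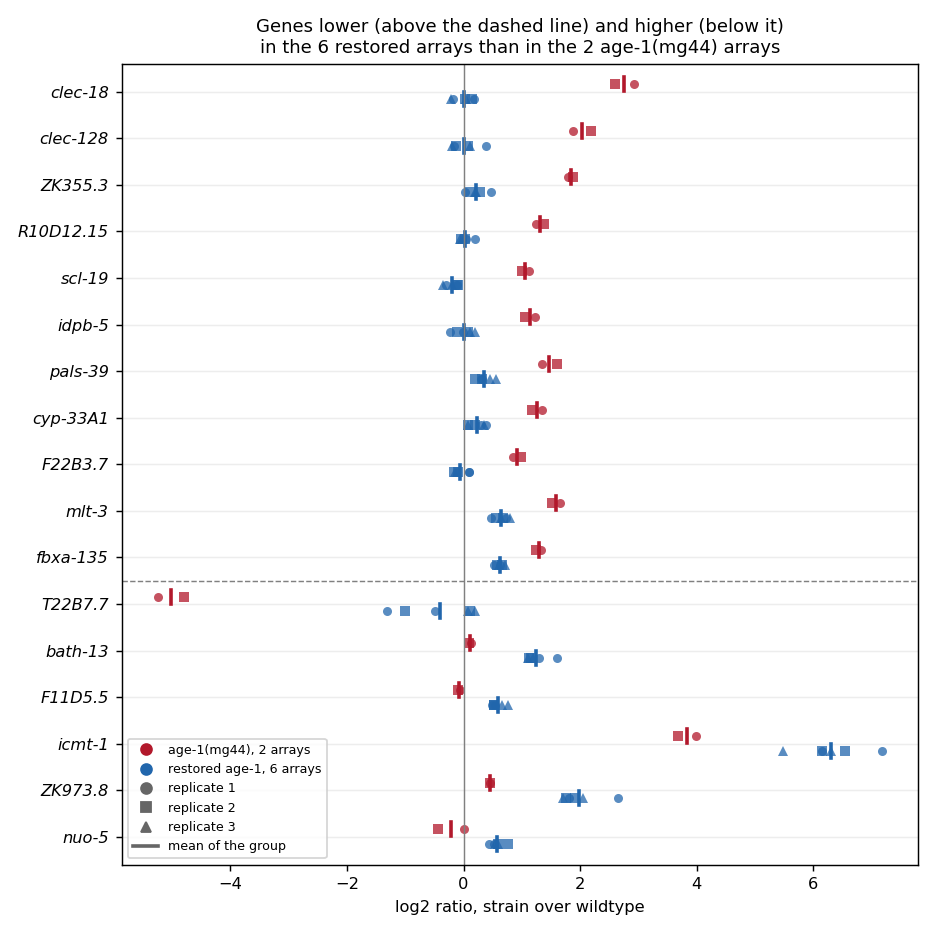
Log2 ratio of strain over wildtype on each array for the 11 genes that fell (above the dashed line), *T22B7.7*, and the 5 next higher genes that missed the threshold; red is *age-1(mg44)*, blue the restored arrays, marker shape the replicate number and vertical bars the group means. Red and blue points do not overlap in any row, and *T22B7.7* and *icmt-1* stand apart from the rest in distance from wildtype.

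At an unadjusted p under 0.05, 0.552% of genes were at least 2-fold lower and 0.541% (102 genes) at least 2-fold higher with restored *age-1*. All but 2 genes of the lower set were above wildtype in *age-1(mg44)*, with a median of 1.68, and the set had a median of 0.20 in the restored arrays. The higher set had a median of 0.08 in *age-1(mg44)* and 1.34 in the restored arrays, where 92 of 102 genes were above wildtype. In the restored arrays 65 genes of the lower set still differed from wildtype at an adjusted p under 0.05, with mean ratios from -2.06 to 3.26, so the median covers members on both sides of wildtype. Of the higher set, 33 genes differed from wildtype in *age-1(mg44)* and 88 in the restored arrays, counts that rest on 2 and 6 arrays and so differ in precision. These medians describe genes picked by the same difference and are no test. Non-overlapping groups were found for 1032 lower genes (5.61%) and 1028 higher genes (5.59%) of the 18390 genes with a value on every array.

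Several lists of defense genes had more lower members than all genes did. Of 22 saposin-like proteins, small proteins that insert into membranes and include antimicrobial and digestive members, 7 were lower at an unadjusted p under 0.05 (31.8%, against 5.13% of all genes) and 0 higher. By at least 2-fold, 4 were lower, against 0.552% of all genes. None passed the adjusted threshold. The median difference of the family was -0.29, against 0.015 over all genes, and lay between -0.75 and -0.03 under all 29 alternative settings. Its value without *age-1(mg44)* replicate 2 was the one nearest to 0.

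*spp-20* had the largest negative difference of any gene and was chosen for that after its values were seen. It was at 6.16 and 6.72 in *age-1(mg44)*, and between 0.27 and 2.74 with a median of 1.94 in the restored arrays. The groups lay far apart, and the spread of the restored arrays was wide (SD 0.86). The difference of -4.74 ± 0.58 missed the threshold (adjusted p = 0.0561). *spp-12* went from 3.76 and 3.21 to a range of -0.54 to 1.11, with 2 of 6 restored spots not well above background (difference -3.17 ± 0.45, adjusted p = 0.0872). *spp-2* and *spp-9* had differences of -1.73 and -1.64 (adjusted p = 0.10 and 0.270).

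Caenacins and the neuropeptide-like antimicrobial peptides of the epidermis showed the same direction. Of 19 such genes 6 were lower at an unadjusted p under 0.05 (31.6%) and 0 were higher. All 6 were lower by at least 2-fold, against 0.552% of all genes. The median over the 19 genes was -0.53. *cnc-4* was at 0.77 and 1.21 in *age-1(mg44)* and at -1.64 to -0.18, median -0.80, with restored *age-1*, below wildtype on every restored array. Its difference was -1.83 ± 0.38 (adjusted p = 0.210). On one side of it lie *cnc-3* and then *cnc-2*, which differed by -1.60 and -2.08 (adjusted p = 0.305 and 0.349). On the other side lie *cnc-5* and then *cnc-1*, which differed by -0.07 and -0.22 with overlapping groups (adjusted p = 0.869 and 0.705). Elsewhere, *nlp-34* differed by -1.44 (adjusted p = 0.487). *cnc-2* had no usable value on 2 of the replicate 1 arrays. Probes of such near-identical neighbours may detect one another's transcripts.

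Of 237 C-type lectins measured, 10 were lower (4.22%) and 4 higher (1.69%) at an unadjusted p under 0.05, shares below those of all genes, and the median difference was 0.01, below 0 under 9 of 29 alternative settings. Yet 8 lectins were at least 2-fold lower, against 0.552% of all genes, and 0 at least 2-fold higher. Among the 8 were the 2 that passed, *clec-47* (-2.10 ± 0.41, adjusted p = 0.188) and *clec-13*. Of 16 lysozymes 2 were lower (12.5%, against 5.13% of all genes), *lys-3* by the most (-1.62 ± 0.59, adjusted p = 0.445), and 0 higher. The lysozyme median of -0.60 ranged from -0.88 without *age-1(mg44)* replicate 1 to -0.25 without replicate 2.

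The 4 lists of detoxification enzymes also had more lower members than all genes. Glutathione S-transferases, which conjugate glutathione to reactive compounds, had 10 of 44 genes lower at an unadjusted p under 0.05 (22.7%) and 1 higher (2.27%), none at the adjusted threshold. *gst-4*, a widely used reporter of oxidative stress, was at 2.12 and 2.68 in *age-1(mg44)* and at 0.11 to 1.79, median 1.03, in the restored arrays. Every restored array was below both mutant arrays and above wildtype, and the difference was -1.43 ± 0.41 (adjusted p = 0.334). For *gst-29* the difference was -1.58 ± 0.40 (adjusted p = 0.291), and for *gst-30* -1.35. The family median of -0.25 was below 0 under all 29 alternative settings.

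Cytochrome P450 genes had 13 of 74 members lower (17.6%) and 0 higher, with *cyp-33A1* the only one that passed. *cyp-14A4* went from 1.92 and 1.76 to between 0.03 and 0.94, with a median of 0.28 (difference -1.51 ± 0.22, adjusted p = 0.0972). The highest restored array, intestine_age-1 replicate 3, stood apart from the other 5. *cyp-14A1*, *cyp-33C8* and *cyp-34A9* were also at least 2-fold lower, at -1.17, -1.13 and -1.02. The family median was -0.10 and turned to 0.04 only when the log ratios were not normalized, a setting that moved the median of all genes to 0.14.

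UDP-glucuronosyltransferases had 8 of 65 genes lower (12.3%) and 1 higher, with a median of -0.20. *ugt-25* was at 0.71 and 1.17 in the mutant and at -1.32 to 0.11, median -1.01, in the restored arrays (difference -1.80 ± 0.35, adjusted p = 0.188). Short-chain dehydrogenases had 6 of 30 lower (20%) and 0 higher, and 1 of these, *dhs-26*, was below wildtype in both groups (-0.66 and -2.06). *sodh-2*, an alcohol dehydrogenase chosen after its values were seen, had a difference of -1.76 ± 0.23 with a restored SD of 0.25 (adjusted p = 0.0723). Its ratios were 1.54 and 2.29 in the mutant and -0.06 to 0.48 with restored *age-1*.

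Of 8 metallothionein and *cdr* genes, which respond to cadmium, 4 were lower (50%), all of them *cdr* genes, and 0 higher. *cdr-4* was at 2.69 and 4.05 in *age-1(mg44)* and at 0.44 to 2.19, median 1.07, with restored *age-1* (difference -2.16 ± 0.52, adjusted p = 0.270). The mutant arrays were well apart, replicate 2 being higher. Among superoxide dismutases and catalases, which remove superoxide and hydrogen peroxide, 0 of 8 genes passed an unadjusted p of 0.05 in either direction. Their median was 1.04 over wildtype in *age-1(mg44)* and 1.17 in the restored arrays.

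Nuclear hormone receptors are ligand-controlled transcription factors, of which the worm has an unusually large number. Of 267 measured, 29 were lower (10.9%) and 10 higher (3.75%) at an unadjusted p under 0.05. The differences were small. The median was -0.04, turning to 0.07 without normalization, and *nhr-131*, at 1.09 ± 0.19 (adjusted p = 0.166), was the only receptor with a 2-fold difference at that threshold. A list of F-box and BATH or MATH domain genes, drawn up after the values were seen, had 36 of 426 genes lower (8.45%) and 5 higher (1.17%), and 1 of the 36, *fbxa-135*, passed. Its median was -0.09 and turned to 0.03 without normalization.

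Targets of the DAF-2 pathway were read from lists of an earlier study of *daf-2* mutants. Class 1 holds genes that are higher when DAF-2 activity is low and class 2 those that are lower. Of 241 class 1 genes measured, 35 were lower (14.5%) and 14 higher (5.81%) with restored *age-1* at an unadjusted p under 0.05. By at least 2-fold, 24 were lower and 2 higher, against 0.552% and 0.541% of all genes. At the adjusted threshold 4 class 1 genes were lower and 0 higher. The class 1 median was 0.95 over wildtype in *age-1(mg44)* and 0.57 in the restored arrays, and its median difference of -0.17 was below 0 under all 29 alternative settings. Array by array the class 1 median was 0.72 and 1.06 in the mutant and 0.30 to 0.70 in the restored arrays.

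Of 229 class 2 genes 5 were lower (2.18%) and 15 higher (6.55%), and none passed the adjusted threshold. By at least 2-fold, 0 were lower and 9 higher, against 0.552% and 0.541% of all genes. The class 2 median difference was 0.01, against 0.015 over all genes, and turned below 0 under 2 of 29 settings. Without regard to fold, the share of class 2 genes that were higher was near the 4.41% of all genes and near the 5.81% of class 1. At least 2-fold higher were 9 of 229 class 2 genes and 2 of 241 class 1 genes.

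**Figure D3:**
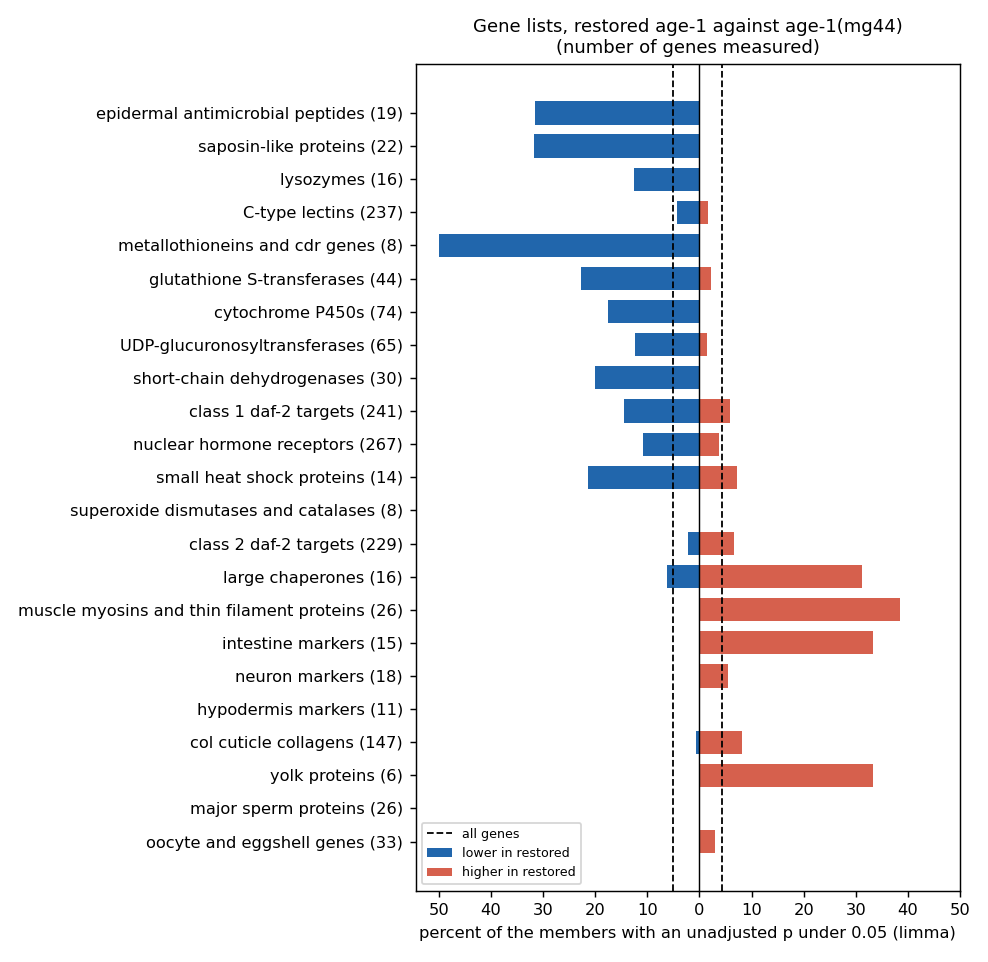
Percent of the members of each gene list that were lower (left) or higher (right) in the restored arrays than in *age-1(mg44)* at limma's unadjusted p under 0.05, with the number measured in parentheses and dashed lines at the 5.13% and 4.41% of all genes. Lists of defense and detoxification genes extend to the left, metallothionein and *cdr* genes reaching 50%, and muscle proteins extend to the right at 38.5%.

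Genes of muscle fibres had the largest share of higher members among the lists examined. Of 26 myosins and thin filament proteins, 10 were higher at an unadjusted p under 0.05 (38.5%, against 4.41% of all genes) and 0 lower. By at least 2-fold, 4 were higher, against 0.541% of all genes, and none passed the adjusted threshold. The list had a median difference of 0.70, which was 0.36 among replicate 1 arrays and 1.08 among the others. It was positive under all 29 alternative settings, from 0.27 without *age-1(mg44)* replicate 2 to 1.18 without replicate 1. By array the list's median was 0.61 and -0.05 in the mutant and 0.50 to 1.44 in the restored arrays, so that the groups overlapped at *age-1(mg44)* replicate 1.

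*unc-54*, the major myosin heavy chain of body wall muscle, was at 0.16 and -1.07 in *age-1(mg44)*. In the restored arrays it was at 0.74 to 1.86, with a median of 1.17, above both mutant arrays. The difference was 1.68 ± 0.38 (adjusted p = 0.251), 0.85 among replicate 1 arrays and 2.40 among the others. *myo-3*, the second body wall myosin, was at 1.42 and 0.01 against 1.28 to 3.00, median 2.14. The groups overlapped at 1 restored array, and the difference was 1.54 ± 0.53 (adjusted p = 0.430). The actin genes *act-1* and *act-4* differed by 1.85 ± 0.34 and 1.23 ± 0.30 (adjusted p = 0.197 and 0.272). *act-1* had no usable value on *age-1(mg44)* replicate 1, so its difference rests on 1 mutant array, and actin probes may detect each other's transcripts.

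Basement membrane genes, which muscle and epidermis share, were chosen after their values were seen. *emb-9* and *let-2* encode the alpha chains of type IV collagen. *emb-9* was at -0.30 and -1.46 in *age-1(mg44)* and at 0.36 to 2.06, median 0.87, in the restored arrays (difference 1.87 ± 0.49, adjusted p = 0.296). *let-2* was at -0.48 and -1.55 against 0.14 to 1.86, median 0.73 (1.83 ± 0.47, adjusted p = 0.295). Both chains were below wildtype on every mutant array and above it on every restored array. *unc-52*, the perlecan that anchors muscle, was at 0.19 and 0.07 against 0.44 to 1.93, median 1.27 (1.12 ± 0.33, adjusted p = 0.339).

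The *col* genes of the cuticle had 12 of 147 members higher (8.16%) and 1 lower (0.68%), with a median of 0.29. *col-93*, *col-96* and *col-92* had the largest of these differences, at 1.27, 1.24 and 1.22. For the body-shape collagens, which include the *sqt-1* gene that is mutant in all 3 strains, 0 of 20 genes passed an unadjusted p of 0.05 in either direction.

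Intestinal genes from the marker list had 5 of 15 members higher (33.3%) and 0 lower. *pept-1*, the gut peptide transporter, was at 0.16 and 0.28 in *age-1(mg44)* and at 0.62 to 1.70, median 1.33, with restored *age-1* (difference 1.0 ± 0.28, adjusted p = 0.320). The other 4 were *erm-1*, *ifc-2*, *pho-1* and *ifb-2*, at 0.98, 0.94, 0.80 and 0.74. Neuron markers had 1 of 18 higher and 0 lower, and hypodermis markers 0 of 11 in either direction. The median differences of these marker lists were 0.30, 0.07 and 0.23. *elo-2*, a fatty acid elongase chosen after its values were seen, differed by 1.55 ± 0.32 (adjusted p = 0.241).

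Among 16 large chaperones 5 were higher (31.2%) and 1 lower. *hsp-1*, a constitutive Hsp70, was at -2.39 on the 1 usable mutant array and at -1.62 to -0.72, median -1.30, in the 5 usable restored arrays (1.21 ± 0.35, adjusted p = 0.389). For *hsp-1* the strain channel differed by 0.61 and the wildtype channel by -0.60, and the wildtype spot was saturated on 1 array. *hsp-110* and *hsp-60* differed by 0.75 and 0.69 with overlapping groups. The list median of 0.22 turned to -0.16 without *age-1(mg44)* replicate 2 and rose to 0.64 without replicate 1, so its sign rested on 1 array.

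**Figure D4:**
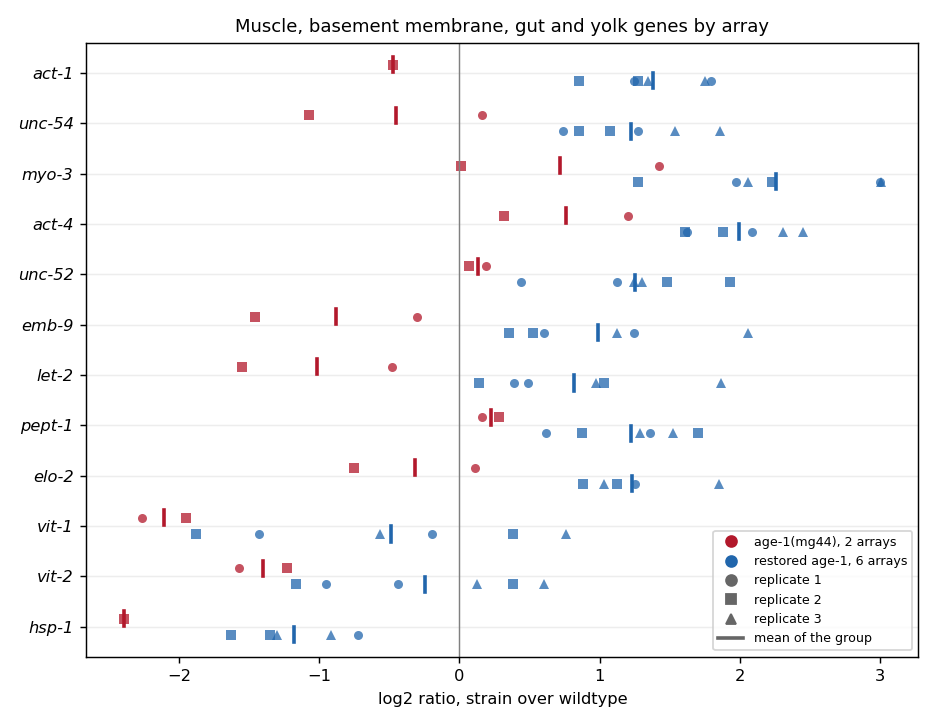
Log2 ratio of strain over wildtype on each array for muscle, basement membrane, gut, yolk and chaperone genes, with red for *age-1(mg44)*, blue for the restored arrays, marker shape for the replicate number and bars for group means; *act-1* and *hsp-1* have 1 mutant value each. In most rows of muscle and basement membrane genes *age-1(mg44)* replicate 2 lies far to the left of replicate 1, as for *unc-54* at -1.07 and 0.16.

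Markers of stage and germline were examined because they could move with age at collection. Yolk protein genes, which the adult intestine expresses, were below wildtype in *age-1(mg44)*, with a list median of -1.32, and at -0.26 in the restored arrays. All 6 genes had a positive difference, 2 of them at an unadjusted p under 0.05 (33.3%, against 4.41% of all genes), with a median of 1.07. *vit-1* was at -2.26 and -1.95 against -1.88 to 0.76, median -0.38 (1.62 ± 0.68, adjusted p = 0.514). The restored arrays were widely spread, and for *vit-1*, *vit-2*, *vit-4* and *vit-5* the wildtype spot was saturated on all 8 arrays and the strain spot on 1 or 2, so that none of their ratios or differences is an exact level.

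Sperm and oocyte genes differed from wildtype in both groups. The 26 major sperm protein genes had medians of 6.37 and 6.60 over wildtype on the mutant arrays and 5.72 to 6.71 on the restored arrays. Oocyte and eggshell genes had medians of -0.74 and -1.76 against -1.39 to -0.39. Neither list was apart between the groups. At an unadjusted p under 0.05, 0 of 26 major sperm protein genes, 1 of 58 other sperm genes and 1 of 33 oocyte genes were higher, and 0 lower. The other sperm genes had a median difference of 0.45. The adult collagen *col-19* differed by -0.30 ± 0.23 (adjusted p = 0.729). The part of stage in the differences above was not tested.

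A family of short secreted peptides, the group C nematode-specific peptides, was picked after its values were seen, so its counts are a description. All 10 measured members had negative differences, with a median of -1.53, and 5 were lower at an unadjusted p under 0.05 (50%, against 5.13% of all genes). By array the family's median was 0.68 and -0.14 in the mutant, -0.13 and -0.10 on the replicate 1 restored arrays, and -2.01 to -1.71 on the other 4 restored arrays. The 3 replicate 1 arrays were thus higher than the others in both groups. The members are close copies, and their probes may share signal.

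Among single genes chosen after their values were seen, *mec-17*, a tubulin acetyltransferase of touch neurons, was at 2.72 and 1.73 in *age-1(mg44)* and at -1.83 to 0.55, median -0.96, with restored *age-1* (difference -3.01 ± 0.69, adjusted p = 0.248). *asp-8*, an aspartyl protease, was at 4.88 and 3.83 against 0.00 to 3.32, median 1.17 (-2.93 ± 0.81, adjusted p = 0.320). In both genes the groups did not overlap, but the restored arrays were widely spread.

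Of 11 measured components of the insulin pathway, *daf-16* alone was higher at an unadjusted p under 0.05 (9.09%; 0.44 ± 0.13, adjusted p = 0.335) and 0 were lower. *daf-2* differed by 0.13 and *akt-1* by 0.02, and both had overlapping groups. Of 24 insulin-like peptide genes 2 were higher (8.33%), *daf-28* by 0.23 and *ins-39* by 0.32, and 0 lower. Beside the 4.41% of all genes, such counts of 1 and 2 genes are no result about either list.

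A list of 25 genes was taken from those that the study names from its arrays. All 25 were measured, and 0 passed the adjusted threshold of limma in the pooled comparison. Of these, 7 had an unadjusted p under 0.05 in either direction, against 9.54% of all genes. Since the study chose them on these arrays, their direction is no independent evidence. *cyp-35B1*, an intestinal cytochrome P450, was at 4.88 and 3.22 in *age-1(mg44)* and at 0.49 to 2.27, median 1.25, with restored *age-1*. Every restored array was lower than both mutant arrays and above wildtype. The difference was -2.71 ± 0.63 (6.55-fold, adjusted p = 0.252), and it was -2.66 among replicate 1 arrays and -2.32 among the others.

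*clec-13* was at 3.38 and 3.47 against 0.58 to 2.18, median 1.23, a difference of -2.11 ± 0.40 with non-overlapping groups (adjusted p = 0.185). *lipl-4*, a lysosomal-type lipase, was at 1.66 and 1.98 against -0.36 to 0.78, median 0.08 (-1.69 ± 0.34, adjusted p = 0.197). *cdr-2* differed by -1.58 ± 0.37 (adjusted p = 0.273) and *acs-2*, an acyl-CoA synthetase, by -0.93 ± 0.24 (adjusted p = 0.296). The restored values of *acs-2* lay within -0.04 to 0.23, and its mutant arrays were at 0.53 and 1.60. The lysozyme gene *lys-7* had 5.47 and 3.33 in the mutant and 0.56 to 4.29, median 1.89, with restored *age-1*, so that the groups overlapped (-2.20 ± 0.98, adjusted p = 0.535).

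Small heat shock proteins of the *hsp-16* group depended on 1 mutant array. *hsp-16.2* was at 0.90 on *age-1(mg44)* replicate 1 and at 4.53 on replicate 2, and the restored arrays ran from -2.0 to 1.72 with a median of -0.25. The replicate 1 mutant array lay inside the restored range. The difference was -2.98 ± 1.18 (adjusted p = 0.484), -1.89 among replicate 1 arrays and -4.44 among the others. *hsp-16.1*, *hsp-16.48* and *hsp-16.41* had differences of -2.89, -2.78 and -2.44 (adjusted p = 0.573, 0.660 and 0.718), and their replicate 2 mutant values were 4.77, 5.35 and 5.24. Without that array *hsp-16.48* and *hsp-16.41* turned to 0.08 and 0.38. *hsp-17* was at 2.29 and 3.63 against 0.80 to 3.14, median 1.80 (-1.01 ± 0.73, adjusted p = 0.707).

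*sod-3*, the mitochondrial manganese superoxide dismutase that is widely used as a reporter of DAF-16, was at 3.99 and 4.98 in the mutant. It was at 4.04 to 5.10, median 4.39, in the 5 restored arrays with a usable value. The groups overlapped, and the difference of -0.01 ± 0.35 (adjusted p = 0.997) had a sign that turned under 8 alternative settings. The yolk genes *vit-2*, *vit-4* and *vit-5* had differences of 1.16, 1.02 and 0.72 (adjusted p = 0.514, 0.603 and 0.671).

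The other 10 genes of the list had differences of -0.80 to -0.39 with overlapping groups. From the largest, they were the fatty acid desaturase *fat-5* (-0.80), *F42A10.6* (-0.70), the lectin *clec-4* (-0.70), the phospholipase *F09C8.1* (-0.69), the galectin *lec-6* (-0.67), *lipl-1* (-0.66), *nmad-1* (-0.64), *F17A9.5* (-0.47), *ttc-36* (-0.39) and the astacin metalloprotease *nas-9* (-0.39). Their adjusted p-values in limma lay between 0.555 and 0.907. *acr-2*, which the study also names and which was not on the list, differed by -0.08 with overlapping groups (adjusted p = 0.847).

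**Figure D5:**
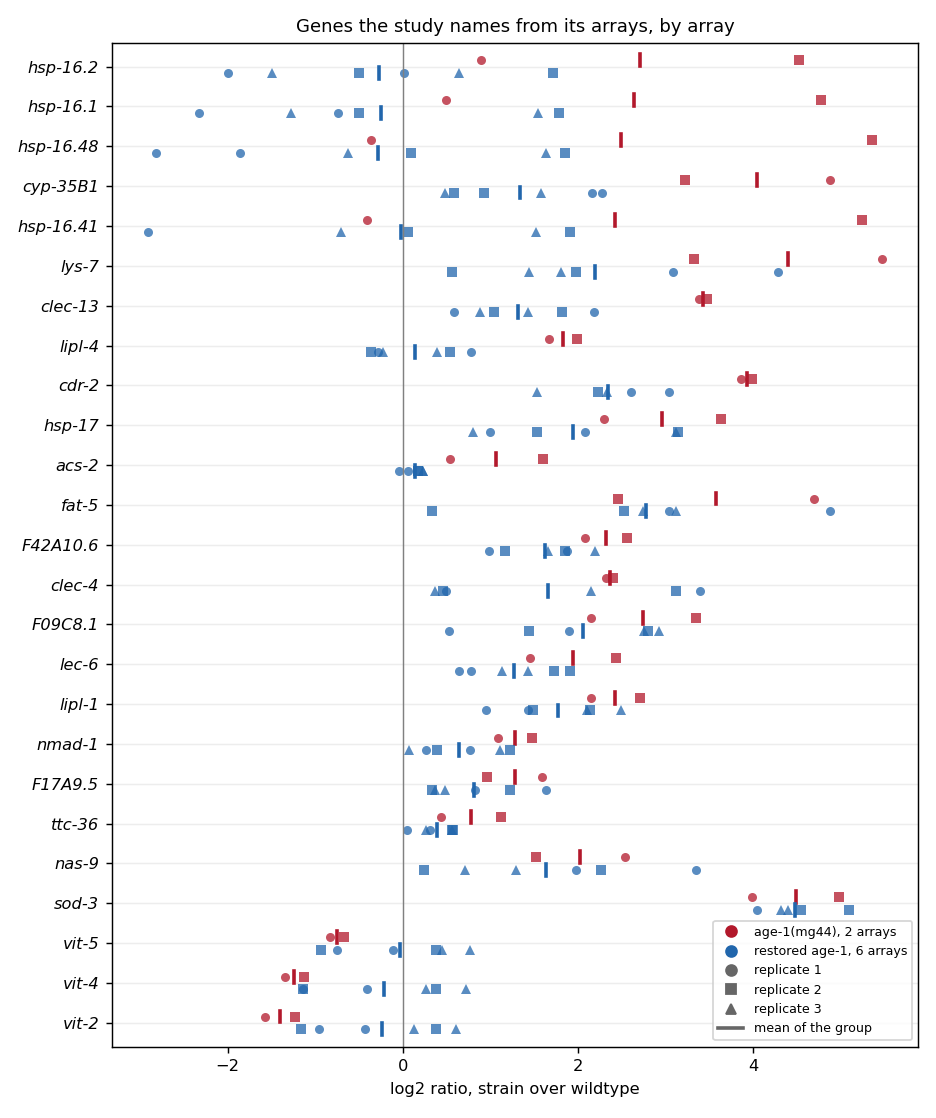
Log2 ratio of strain over wildtype on each array for the 25 genes of the list taken from the study, ordered by the difference between groups, with red for *age-1(mg44)*, blue for the restored arrays, marker shape for the replicate number and bars for group means. Red lies to the right of blue without overlap for *cyp-35B1*, *clec-13*, *lipl-4*, *acs-2* and, over its 5 usable restored arrays, *cdr-2*. It lies to the left of blue without overlap for *vit-2*, and the 2 red points of the *hsp-16* genes lie far apart.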

How the data were processed

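RNA of 3 *C. elegans* strains was hybridised with wildtype RNA on 8 Agilent 2-colour arrays without a dye swap. Per the file headers, the authors' scanner output came from Agilent Feature Extraction A.7.5.1 and holds the intensity of each spot in both channels, with local background and flags. The authors also deposited log10 ratios of red over green, limited at both ends, in the scanner output and in a value table. These served only as an alternative, with the sign turned and scaled to log2.

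From the 21482 spots, intensity was corrected with normexp (offset 50) and log2 ratios of green over red were normalized by loess within each array, with control spots and spots marked as outliers given weight 0 and the latter left out. The brightest of the probes of a gene stood for it, which mattered for 822 of 18868 genes. The study's minimum raw wildtype signal of 100 removed 0 probes. limma 3.58.1 in R 4.3.3 fitted the 6 restored and 2 *age-1(mg44)* arrays as 2 groups, with Benjamini-Hochberg adjustment over 18856 genes and a threshold of 0.05. With 8 arrays the number of arrays limits the precision, and p-values measure the spread between arrays as recorded. The scripts were tested on simulated data. Gene symbols were updated through RefSeq's WBcel235 table, in which 18118 genes were matched.

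Genes were named where they passed with non-overlapping groups and spots above background in the higher group, filled to 6 per direction by p, with *age-1* and 25 of the genes that the study names. Other named genes were chosen after their values were seen. The members of the comparison, the gene lists and the tests were chosen with earlier results of these data known. *daf-2* target lists are those of a supplement of the study. Alternatives covered background, normalization, filters, probe choice, moderation, weights, blocks, the methods' t-test and leaving out each array.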

Additional observations from a re-analysis of the deposited data

Results flagged for a closer look

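In the 6 restored arrays, 4 of 75 named genes had 1 array far from the others by Dixon's criterion, which chance alone meets in about 1 of 20 groups. *ZK973.8* was at 2.64 on neuron_age-1 replicate 1, with the nearest array at 2.05. *R10D12.15* was at 0.20 on the same array, with the nearest at 0.03, and the array remained far below both *age-1(mg44)* arrays. On intestine_age-1 replicate 3, *ugt-25* was at 0.11 (nearest -0.84) and *cyp-14A4* at 0.94 (nearest 0.37).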

How the results depend on the processing

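With 2 *age-1(mg44)* arrays, the number of genes called depended on the processing, from the 12 of the main setting. It was 6 with the scanner's background-subtracted signal, with its processed signal, with the value table and with median centring, and 1 without normalization. It was 72 on the strain channel alone, 19 with array weights, 5 with a mean per strain and 4 with the day of feature extraction as a block. Only intestine_age-1 replicate 2 was extracted on another day, so that block gives the same result as leaving this array out, and the counts of settings hold both. Above a raw wildtype signal of 500, where 11131 genes were tested, limma called 0 genes, with 1155 at an unadjusted p under 0.05. That filter left out some of the 12 genes, among them *R10D12.15*, *idpb-5* and *pals-39*, so these were not tested there. The methods' t-test called 1821 genes unadjusted and 2 after adjustment, 0 of them among the 12. Loosening the threshold gave 36 genes at an adjusted p under 0.1 and 1799 unadjusted. Leaving out 1 array gave 1 to 28 genes: 1 without *age-1(mg44)* replicate 1 or 2, 6 and 4 without intestine_age-1 replicate 1 and 2, 28 without its replicate 3 and 7 without neuron_age-1 replicate 3.

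A replicate block on the recorded numbers called 57 genes, 50 of them lower. The groups share fewer than 3 numbers, so the pairing could not be established. After the data were seen, a replicate block of replicate 1 against the others (195 genes) and one on the value table's numbers (130) were added. All 12 genes were called under each of these blocks. Over all alternative settings the calls were uneven, and a setting that left a gene out is not counted for that gene. *clec-18* lost its call under 3 of 26 settings, *ZK355.3* under 4 of 27, *R10D12.15* and *scl-19* under 4 of 28, and *clec-128* under 7 of 28. *T22B7.7*, the only higher gene, lost it under 11 of 29 and *F22B3.7* under 12 of 28. *cyp-33A1* and *mlt-3* lost it under 20 of 29, *fbxa-135* under 19 of 27, *idpb-5* under 15 of 26 and *pals-39* under 14 of 27. A further 13 named genes passed under at least 1 block. Of these, *bath-13*, *spp-20*, *cnc-3* and *T22B7.3* passed under all 3, *F11D5.5*, *spp-12*, *sodh-2*, *cyp-14A4* and *cyp-35B1* under 2, and *ZK973.8*, *icmt-1*, *clec-47* and *spp-2* under the block of replicate 1 against the others. Their adjusted p-values in these limma fits lay between 0.014 and 0.0466. Some named genes also passed under settings without a block. Blocks included, *spp-20* passed under 7 of 28 settings, *bath-13* under 5 of 27, *icmt-1* under 4 of 28 and *ZK973.8* under 3 of 28.

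The sign of 6 named differences turned, none of which had passed. For *age-1* it was 0.12 without normalization, and -0.40 to 0.18 when single arrays were left out. The latter range was -5.64 to 0.078 for *hsp-16.48*, -5.27 to 0.38 for *hsp-16.41*, -1.93 to 0.32 for *fat-5* and -0.89 to 0.12 for *nas-9*, with an *age-1(mg44)* array left out at both ends. *nas-9* was also at 0.19 with the value table's replicate block. *sod-3* turned to 0.056 without background subtraction, 0.14 without normalization, 0.11 on the strain channel and 0.0076 with array weights, and ran from -0.50 to 0.49 without single arrays. The causes were not tested.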
